A study of Mus musculus and unidentified plasmid with 60 samples.

Results

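The Bdnf locus was described through the regions of chromatin bound by a dominant-negative RFX protein, called RFX-DN, in mouse cortical neurons. All regions that overlapped chromosome 2 from 109480000 to 109590000 (mm9) were taken, an interval of 110 kb set to hold the Bdnf gene and about 30 kb before it. It held 12 of the 173231 regions listed at 0 h of depolarization, 14 of the 122135 regions listed after 1 h, and 0 of the 43 regions of another list, titled WT. The regions were chosen by their positions, and the locus was selected on the presence, width and column support of its regions in these lists, so the values are given as a description beside the same value over each whole list, and no test was made.

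The series held 60 samples, of which 8 were ChIP-seq libraries, and the 3 lists came from 6 of these, 2 libraries a group. Cortical neurons were cultured from E16 embryos of CD-1 mice. In the 0 h and 1 h groups, lentivirus carrying RFX-DN was added on day in vitro (DIV) 2. Tetrodotoxin and an NMDA receptor antagonist silenced these cells overnight from DIV 6. On DIV 7 the drugs were replaced by 55 mM KCl for 1 h in the 1 h group, and the 0 h group had 0 h of depolarization. The immunoprecipitation used an anti-MYC antibody, so what was mapped is the introduced protein and not native RFX, in whichever cells of the culture took up the virus. The labels of the WT group give no treatment or time, and do not settle whether RFX-DN was present in it. The labels do not say whether a group's 2 libraries are separate cultures. The depth of the libraries is unknown, and the lists hold no peak height or score.

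Bdnf encodes brain-derived neurotrophic factor, a secreted protein that acts mainly through the receptor TrkB and is needed for the survival of neurons and the plasticity of synapses. The gene has several alternative promoters, each followed by its own first exon and spliced to a shared exon that holds the whole coding sequence, and some of them are switched on by calcium entry when neurons are depolarized. RFX proteins are transcription factors that bind the X-box, an inverted repeat of 2 half-sites, and a dominant-negative form interferes with the native proteins. In the RefSeq annotation Bdnf lies between the coding genes Kif18a and Lin7c on chromosome 2.

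RefSeq held 12 transcripts of Bdnf and 7 start sites with a promoter entry (build GRCm38.p6, plus strand), numbered here 1 to 7 along the gene. Relative to start 1, the others lay 2.33, 17.7, 18.3, 19.7, 34.7 and 48.2 kb downstream, so that 1 and 2 formed a first group, 3 to 5 a second, and 6 and 7 stood alone. The bound regions are in mm9, and as no coordinates were carried between builds, no region was assigned to a promoter, exon or intron. The sequence under the regions was not analysed here. The 250 bases before 4 of the 7 starts are printed, with 2 variant half-sites, GTTGCT and GTTACT, in capitals on either strand. Neither variant is part of the full X-box or of its looser form given below. Promoter 1 (chr2:109674450-109674699) is shown as the start of the gene. Promoters 3 (chr2:109692186-109692435), 4 (chr2:109692777-109693026) and 6 (chr2:109709133-109709382) are shown as those with a variant half-site before the start. Promoters 2, 5 and 7 held no half-site in the windows searched and are not printed.
Bdnf promoter 1: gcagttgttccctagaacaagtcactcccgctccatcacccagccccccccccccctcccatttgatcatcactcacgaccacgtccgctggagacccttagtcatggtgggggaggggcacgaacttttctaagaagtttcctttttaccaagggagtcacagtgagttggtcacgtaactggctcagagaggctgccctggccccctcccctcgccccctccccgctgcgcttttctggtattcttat
Bdnf promoter 3: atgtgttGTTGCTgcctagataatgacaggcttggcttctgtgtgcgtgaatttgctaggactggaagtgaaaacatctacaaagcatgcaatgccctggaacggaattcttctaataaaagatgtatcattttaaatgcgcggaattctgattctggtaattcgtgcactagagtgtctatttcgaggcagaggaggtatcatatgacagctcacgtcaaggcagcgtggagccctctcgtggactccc
Bdnf promoter 4: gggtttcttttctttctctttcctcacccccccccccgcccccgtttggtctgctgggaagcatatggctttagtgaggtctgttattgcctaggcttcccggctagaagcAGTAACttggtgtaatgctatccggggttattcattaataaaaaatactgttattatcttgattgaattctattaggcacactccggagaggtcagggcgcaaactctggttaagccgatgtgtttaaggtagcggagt
Bdnf promoter 6: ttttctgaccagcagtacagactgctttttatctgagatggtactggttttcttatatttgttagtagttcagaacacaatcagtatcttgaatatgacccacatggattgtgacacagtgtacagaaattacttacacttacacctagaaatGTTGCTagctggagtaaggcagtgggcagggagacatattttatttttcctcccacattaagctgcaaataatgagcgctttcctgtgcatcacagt

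The windows searched ran from 250 bases before to 50 bases after each start, on both strands. The full X-box, GTTGCC and its mirror half-site GGCAAC parted by the bases AT, and a looser form that contains it, GTTNCC and GGNAAC parted by any 2 bases, were in 0 of the 7 Bdnf promoters and in 0.0183% and 0.451% of the 32851 mouse promoters of the table. The half-sites GTTGCC and GTTACC, the first of which is part of the full X-box, were also in 0 of the 7, against 12.5% and 7.21% of all promoters. The variant half-site GTTGCT was in 3 of the 7, against 14.8% of all. It stood on the plus strand 243 bases before start 3 and 97 bases before start 6, and on the minus strand 27 bases after start 1, beyond the stretch printed. The variant GTTACT was in 1 of the 7, on the minus strand 139 bases before start 4 (AGTAAC as printed), against 8.21% of all. At least 1 of these 4 half-sites was in 4 of the 7 promoters, against 35.8% of all, and the difference was not tested. Such matches are descriptions of letters and not binding sites, and their absence says only that these letters are not in these windows.

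Regions bound by RFX-DN lay on both sides of 1 very wide region, and the others ranged from 20 to 650 bases at 0 h and from 150 to 610 bases at 1 h. The 0 h regions covered 4510 bases and the 1 h regions 4690 bases, and 3880 bases were in both. Median widths were 230 bases at 0 h and 205 bases at 1 h, against 200 and 210 bases over the whole lists. The widest region alone held 37.7% of the covered bases at 0 h and 35.4% at 1 h. Regions of the 2 lists that overlapped by at least 1 base were joined into sites, numbered 1 to 14 from left to right, and each site held at most 1 region of either list.

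**Figure D1:**
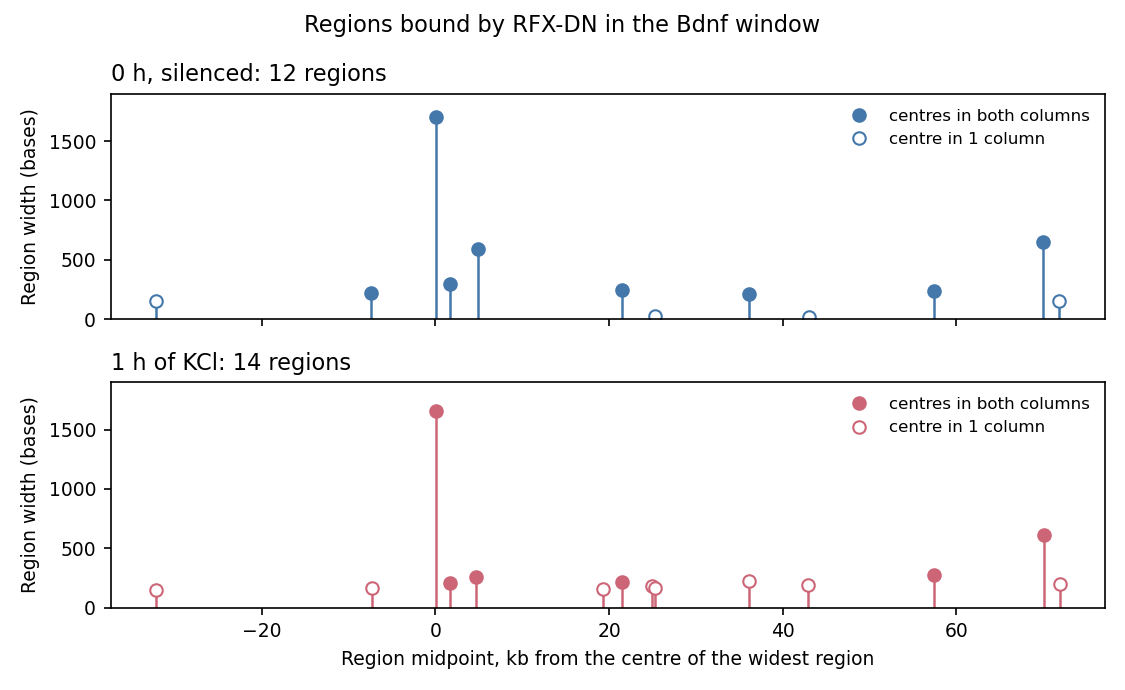
Width of each region (vertical axis, bases) against its midpoint (horizontal axis, kb from the centre of the widest region), at 0 h (upper panel, 12 regions) and after 1 h of KCl (lower panel, 14 regions). Filled points have a centre in both replicate columns and open points in 1 column. The region at 0 kb, with 1700 bases at 0 h and 1660 after KCl, stands above all others.

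Each list has 2 replicate columns, c1 and c2, whose entries are either the position of a centre within the region or empty. The columns name no library, so c1 of one list was not taken to be the partner of c1 of the other. At 0 h, 8 of the 12 regions had both columns filled (66.7%, exact Clopper-Pearson interval at 95% from 34.9% to 90.1%), against 61.0% of the whole list. At 1 h, 6 of 14 did (42.9%, interval 17.7% to 71.1%), against 54.8% of the whole list. The 2 columns had 12 and 8 centres at 0 h, and 13 and 7 at 1 h.

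All 12 regions listed in silenced neurons were listed again after depolarization. That is 100% (exact Clopper-Pearson interval 73.5% to 100%), where 65.4% of all 0 h regions overlapped a 1 h region. The 8 with centres in both columns were met, against 84.9% of all such regions, and so were the 4 with a c1 centre only, against 41.3% of all such regions. In the other direction 12 of the 14 regions listed after KCl had a 0 h counterpart (85.7%, interval 57.2% to 98.2%), against 93.3% of the whole 1 h list. Both shares were lower when column c1 of the other list was left out. Without column c1 of the 1 h list, 7 of the 12 regions at 0 h were met (58.3%), and without column c1 of the 0 h list, 8 of the 14 at 1 h (57.1%). Whole-list shares without a column were not computed. Column c1 was the fuller one in both whole lists, with 155961 centres against 122913 at 0 h and 114659 against 74386 at 1 h. With overlap of at least 50% of both regions required, 9 of 12 were met, against 54.2% of the whole 0 h list, and 9 of 14 against 76.8% of the 1 h list. The intervals cover counting error only, and neighbouring regions are not independent.

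More regions were listed at the Bdnf locus after depolarization than before it, 14 against 12, a ratio of 1.17, whereas the whole lists gave a ratio of 0.705. The genome was divided into 22628 adjacent windows of 110 kb that held a region in either list, laid so that the Bdnf interval was 1 of them and with each region counted at its midpoint. Of these windows, 4.39% had more regions at 1 h than at 0 h. The median window held 7 regions at 0 h and 5 at 1 h, and 21.4% of windows had at least 12 at 0 h while 2.47% had at least 14 at 1 h. Among the 1081 windows that also held 12 regions at 0 h, the number at 1 h ran from 3 to 14 with a median of 8, and 7 windows, the Bdnf interval included, had at least 14. The excess rested on regions with a centre in 1 column. Regions with centres in both columns went from 8 to 6, a ratio of 0.750, where the whole lists gave 0.633. Of all windows, 73.8% had fewer of these at 1 h. Without column c1 of the 1 h list, 7 regions were left at 1 h. That count comes from 1 column, whereas the 12 at 0 h come from 2.

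**Figure D2:**
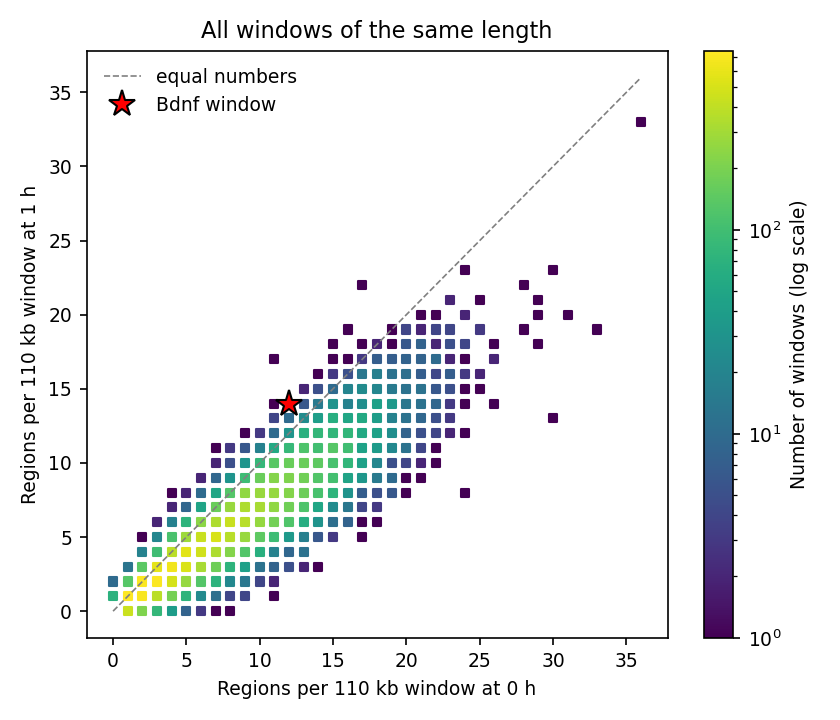
Number of regions per 110 kb window at 0 h (horizontal axis) and after 1 h of KCl (vertical axis), coloured by the number of windows on a log scale. The star is the Bdnf interval, with 12 and 14 regions. It lies above the dashed line of equal numbers, as do 4.39% of all windows.

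The widest region of the locus was site 3. The interval was set with this region described as lying just before the gene, which was not checked here against an mm9 annotation. It ran over chr2:109512940-109514640 at 0 h, 1700 bases, and over chr2:109512960-109514620 at 1 h, 1660 bases. All 4 centres, c1 and c2 at both times, were at 109513770. No shift of this centre between columns or times was therefore listed. On chromosome 2 no region was wider at either time, with 1 other of 1700 bases among the 12892 at 0 h, and with 1580 bases for the next of the 9008 at 1 h. In the whole lists it ranked 19th at 0 h and 10th at 1 h.

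The width of site 3 was nearly kept, at a ratio of 1 h to 0 h of 0.976. Over the 521 pairs of regions that met only each other and were at least 1000 bases wide at 0 h, the median ratio was 0.952 (quartiles 0.764 and 0.991), so that the Bdnf site lay within their middle range. Equal positions of all 4 centres were found in 1 of the 6 Bdnf pairs that had 4 centres. Over the whole lists 9.10% of 63947 such pairs had 4 equal centres, and 13.5% of the 502 such pairs that were at least 1000 bases wide. The 4 centres lay within a range of 50 bases in 3 of the 6 Bdnf pairs. Over the whole lists this held for 88.8% of the 63947 pairs, and for 64.3% of the 502 wide ones. Close centres were thus a smaller share of the Bdnf pairs than of the whole lists, a difference that was not tested.

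Downstream of the wide region, 2 further sites with centres in both columns at both times made up a cluster with it. Site 4 began 660 bases further on. It ran over chr2:109515300-109515600 at 0 h (300 bases, centres at 109515460 and 109515415) and over chr2:109515390-109515600 at 1 h (210 bases, centres at 109515500 and 109515440). The right ends were equal and the left end lay further in at 1 h. Site 5 showed the largest difference in width among the 12 pairs. At 0 h it ran over chr2:109518330-109518920, 590 bases, with both centres at 109518440. At 1 h it ran over chr2:109518350-109518610, 260 bases, with centres at 109518460 and 109518440. The centres differed by at most 20 bases. Of the stretch missing at 1 h, 310 bases were on the right, the side away from the wide region, and 20 on the left. Its ratio of widths was 0.441. Among 4226 pairs over the whole lists with a 0 h width from 500 to 700 bases, the median ratio was 0.850 (quartiles 0.475 and 0.957), and 22.3% had a ratio as low as that of site 5. A width in a combined list has no replicate error.

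To the left of the wide region lay 2 sites, parted by 24.6 kb without any region. Site 2 ran over chr2:109506280-109506500 at 0 h (220 bases, centres at 109506390 and 109506400) and over chr2:109506330-109506500 at 1 h (170 bases, a c1 centre at 109506380 and none in c2). Its support thus went from both columns to 1, and the centre at 1 h lay 15 bases from the mean of the 0 h centres. Site 1 had a c1 centre only at both times, at 109481540 and 109481550, and was 150 bases wide in both lists.

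The interval from site 5 onward held a long gap and then sites 6 to 9 close together, which included both regions listed only after depolarization. Site 6 ran over chr2:109532940-109533100 at 1 h, 160 bases, with a c1 centre at 109533010 and none in c2. The nearest 0 h region was 2090 bases away. Site 8 ran over chr2:109538590-109538770, 180 bases, with a c1 centre at 109538640 and none in c2. It lay 260 bases from the nearest 0 h region and 200 bases from the 1 h region of site 9. The 1 h regions of sites 8 and 9 became 1 region when regions within 500 bases were merged. Of all regions listed only at 1 h, 1.33% lay as near as site 8 to another 1 h region. As near to a 0 h region lay 8.75%. Over the whole list 6.69% of 1 h regions had no counterpart at 0 h. Among 1 h regions with a centre in 1 column this share was 14.3%, and the Bdnf locus had 2 of 8. Among those with centres in both columns it was 0.435%, and the locus had 0 of 6. Both were wider than most regions of their kind, since the median width of the 8170 regions listed only at 1 h was 70 bases and 11.7% were at least 160 bases wide. With 1 centre each, neither was seen in both replicates.

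Beside them stood site 7, with centres in both columns at both times. It ran over chr2:109535190-109535440 at 0 h, 250 bases, with centres at 109535200 and 109535310. At 1 h it ran over chr2:109535180-109535400, 220 bases, with centres at 109535270 and 109535355. The centres of the 2 columns lay 110 bases apart at 0 h and 85 bases at 1 h, and the mean centre of the 1 h region lay 57.5 bases from that of the 0 h region, less than the distance between columns. Site 9 was 30 bases wide at 0 h (chr2:109539030-109539060, c1 centre at 109539040) and 170 bases at 1 h (chr2:109538970-109539140, c2 centre at 109539030). It had a centre in 1 column at each time, in c1 at 0 h and in c2 at 1 h.

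Further along, the regions were more widely spaced. Site 10 ran over chr2:109549750-109549960 at 0 h (210 bases, both centres at 109549890) and over chr2:109549740-109549970 at 1 h (230 bases, c1 centre at 109549800). The support went from both columns to 1, as at site 2. The ends of the region differed by 10 bases between the times, whereas the centre at 1 h lay 90 bases to the left of the 0 h centres. Site 11 was 20 bases wide at 0 h (chr2:109556750-109556770, c1 centre at 109556755) and 190 bases at 1 h (chr2:109556590-109556780, c1 centre at 109556670). Sites 9 and 11 were the only Bdnf sites with a 0 h region of 30 bases or less. Regions as narrow as this were met at 1 h in 12.3% of 12591 cases. Those 1443 that met only 1 region, which met no other, had counterparts with a median width of 100 bases (quartiles 50 and 140), and 13.3% had a counterpart of at least 170 bases.

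The last 3 sites lay at the downstream end. Site 12 ran over chr2:109571130-109571370 at 0 h (240 bases, centres at 109571240 and 109571230) and over chr2:109571090-109571370 at 1 h (280 bases, centres at 109571240 and 109571260). Site 13 was the widest after site 3, with 650 bases at 0 h (chr2:109583490-109584140) and 610 bases at 1 h (chr2:109583560-109584170). Its centres at 0 h were 380 bases apart, c1 at 109583990 and c2 at 109583610, the largest distance between columns at the locus, whereas at 1 h they were 20 bases apart, at 109584000 and 109583980. The 0 h column c1 thus lay beside both 1 h centres, and the 0 h column c2 alone lay apart. Site 14 had a c1 centre only at both times, at 109585610 and 109585670, with widths of 150 and 200 bases.

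**Figure D3:**
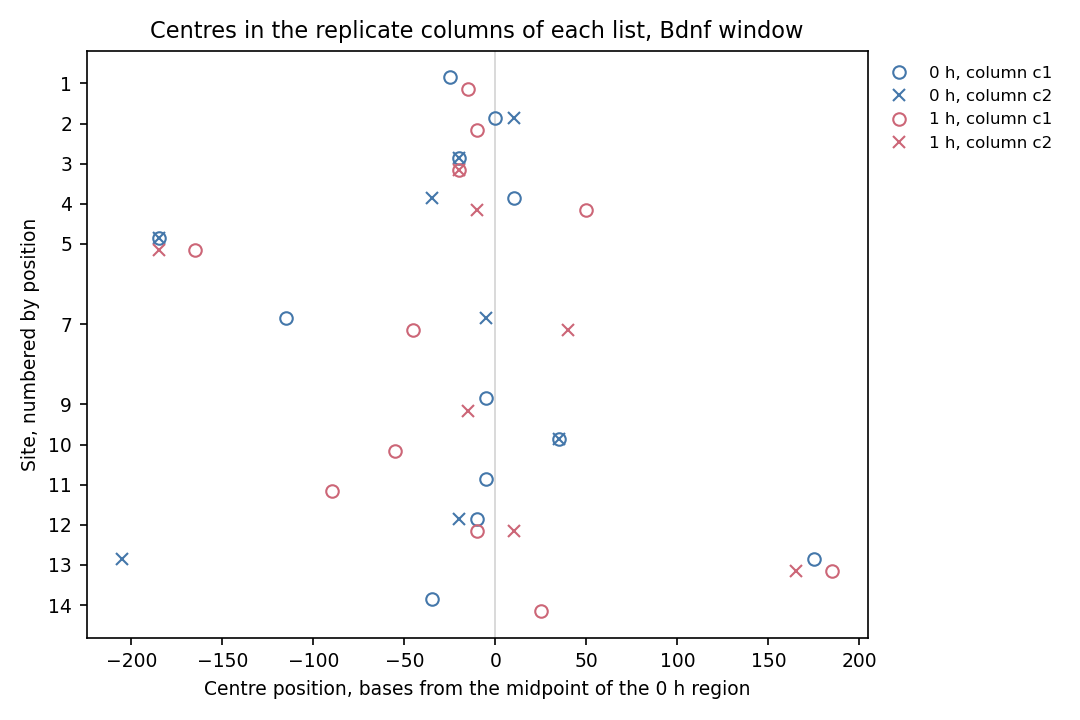
Position of each centre (horizontal axis, bases from the midpoint of the 0 h region) at the 12 sites listed at both times (vertical axis, numbered by position), for columns c1 (circles) and c2 (crosses) at 0 h (blue) and after 1 h of KCl (red). The 4 centres of site 3 coincide, and at site 13 the c2 centre at 0 h lies apart from the other 3.

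Widths moved in both directions over the 12 pairs. The 1 h region was wider at 5 sites, narrower at 6 and equal at 1, and the median ratio was 0.988 (quartiles 0.853 and 1.21). Over all 112001 pairs that met only each other, 20.4% were wider at 1 h and the median ratio was 0.900 (quartiles 0.692 and 1.00). The wider sites were 9, 10, 11, 12 and 14, all in the downstream part of the interval, and the narrower ones were 2, 3, 4, 5, 7 and 13. Sites 9 and 11 had the largest ratios, 5.67 and 9.50, each from a 0 h region of a few 10-base steps. For pairs grouped by their column support at 0 h, the support at 1 h was close to that of the whole lists. Of the 8 pairs with both columns at 0 h, 6 also had both at 1 h, against 72.0% over the whole lists. The 4 pairs with 1 column at 0 h had 1 column at 1 h, as did 21223 of 23203 such pairs over the whole lists.

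**Figure D4:**
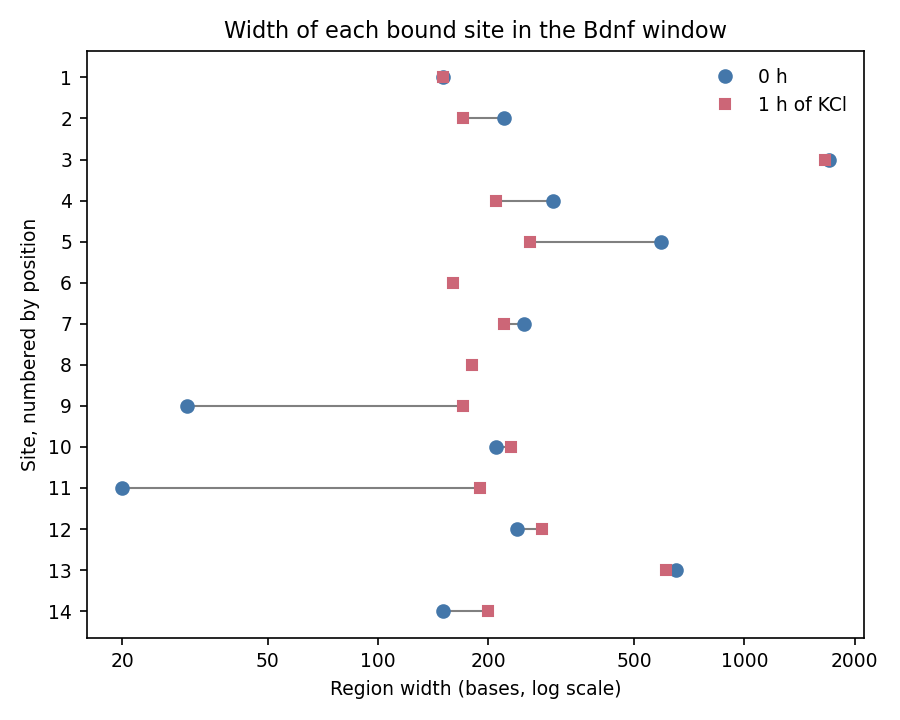
Width of the region at 0 h (blue circles) and after 1 h of KCl (red squares) on a log scale in bases, for each of the 14 sites numbered by position. Sites 6 and 8 have a 1 h region only, site 5 went from 590 to 260 bases, and sites 9 and 11 from 30 and 20 bases to 170 and 190 bases.

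No WT region lay in the interval, and chromosome 2 held 2 of the 43. The nearest was 49.3 Mb from the centre of site 3. The wide region of the Bdnf locus was therefore not listed in the group titled WT, though with 43 regions in all that list leaves out most places that the other lists hold.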

How the data were processed

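ChIP-seq lists of bound regions were used for 3 groups of 2 libraries. The members and settings were chosen with earlier results of these data known. Bowtie and mm9 are named per the submitters' processing notes. The peak caller, its settings and the joining of replicates, not given in the sources used here, could not be checked. Each list was deposited once per group by the authors, per the file headers with a chromosome, a start, an end and the columns c1 and c2. From the values, c1 and c2 hold a position inside the region or a negative mark for none. Widths are end minus start. The lists do not say whether they count from 0 or 1. No region overlaps another of its list. An overlap of 1 base or more made regions shared. The overlap code was tested on simulated regions, of which 2000 of 2000 planted partial overlaps and 0 of 2000 placed in gaps were found. All regions of the interval are named. The outermost regions inside began 1490 bases from the left edge and ended 4280 bases from the right at 0 h (1 column each), and those just outside lay 490 and 1850 bases beyond (both columns). At 1 h these distances were 1500, 4230, 530 and 1850 bases, and the region outside on the left had 1 column. Motifs were sought in RefSeq promoters of GRCm38.p6. Motif searches in the regions and counts near other genes of BDNF signalling were not run, as no mm9 genome or annotation was used. Computations used Python 3.11.15, numpy 2.4.6, pandas 2.3.3, scipy 1.17.1 and matplotlib 3.10.9.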

Additional observations from a re-analysis of the deposited data

How the results depend on the processing

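No paired analysis was possible because c1 and c2 carry no replicate number of the labels. Of 64 values recomputed under the alternatives, 57 stayed within 1.5 times the reported count or width, or within the interval of the reported share, and 7 did not. With only regions that had centres in both columns, the number at 1 h was 6 and 100% of these (6 of 6) were met at 0 h, as follows from fewer regions. With the interval widened by 20 kb on each side, the number at 0 h was 19. Without 1 column of a list, the number of regions was 8 to 12 at 0 h and 7 to 13 at 1 h. Of the 0 h regions, the share with a 1 h counterpart was then 58.3% to 100%, lowest without column c1 of the 1 h list. For the 1 h regions, the share with a 0 h counterpart was 57.1% to 100%, lowest without column c1 of the 0 h list. More regions at 1 h than at 0 h were listed with a minimum width of 100 bases (14 against 10) and after merging regions within 500 bases (13 against 12). The same held without the upstream 30 kb (12 against 10) and in the widened interval (20 against 19), but not with both columns required (6 against 8). Without column c1 of the 1 h list the numbers were 7 against 12. There, 1 column at 1 h was set against 2 at 0 h, so these numbers cannot be compared like for like. The width of the widest region was the same after merging. As the depth is unknown, limits of detection were not computed.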

Other observations

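The stretches of 110 kb on either side of the Bdnf interval held fewer regions. On the left there were 11 at 0 h and 7 at 1 h, and on the right 7 and 5, ratios of 0.636 and 0.714. Of the 0 h regions, 7 of 11 on the left and 4 of 7 on the right were met at 1 h. The widest region was 400 bases on the left and 460 bases on the right at 0 h. Regions with centres in both columns went from 4 to 1 on the left and were 4 at both times on the right. The WT list had 0 regions in either stretch. These values are given as a description, and the difference from the Bdnf interval was not tested.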
